A study of Mus musculus with 57 samples.

Results

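Transcript levels of 9 genes of the tricarboxylic acid (TCA) cycle were followed across adipose tissue of wild-type mice and of mice carrying a mutant mitofusin 2. The 9 genes (Cs, Idh3a, Idh3b, Idh3g, Ogdh, Ogdhl, Suclg1, Mdh2 and Fh1) were chosen by gene symbol out of 52853 genes with counts. All 9 were found, and Ogdhl was included to be read against its paralog Ogdh. The knock-in (KI) mice were homozygous for Mfn2 R707W. The mutated arginine lies in the C-terminal part of mitofusin 2, a protein that fuses the outer membranes of mitochondria. All KI mice descend from a single CRISPR-Cas9 founder on a C57BL/6J background, and the allele also carries a restriction site used for genotyping. Every group was male. Mice entered the diets at 5 weeks of age by the paper's methods, whereas its figure legends give 7 weeks. They stayed on them for 6 months, either on chow or on a high-fat diet (HFD) with 45% of its energy as fat. RNA was sequenced from inguinal white adipose tissue (WAT) on HFD (8 WT and 8 KI mice), inguinal WAT on chow (7 WT and 6 KI mice) and brown adipose tissue (BAT) on HFD (6 WT and 6 KI mice). No BAT on chow was analysed here.

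The TCA cycle runs in the mitochondrial matrix, where it oxidises the acetyl group of acetyl-CoA and hands the electrons to the respiratory chain. Citrate synthase opens the cycle, the isocitrate and 2-oxoglutarate dehydrogenases carry its decarboxylating steps, and succinyl-CoA ligase, succinate dehydrogenase, fumarase and malate dehydrogenase return succinyl-CoA to oxaloacetate. Brown adipocytes are packed with mitochondria and burn fuel through this pathway to make heat. White adipocytes hold fewer mitochondria, and citrate leaving the cycle feeds their fatty acid synthesis. Ogdhl is a second E1 gene of the 2-oxoglutarate dehydrogenase family, best known from brain and liver.

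The stretches just before the starts of Ogdh, Ogdhl and Cs are shown because the paralogs Ogdh and Ogdhl differed in opposite directions between tissues and because Cs encodes the entry enzyme. Each is the 250 bases upstream of a RefSeq transcription start on the plus strand (GRCm38.p6), with CpG dinucleotides in capitals. None of the 3 windows holds an annotated exon. For Ogdh the first of 6 listed starts was taken (chr11:6291347-6291596), for Ogdhl the window is chr14:32321769-32322018 and for Cs it is chr10:128337477-128337726.
Ogdh: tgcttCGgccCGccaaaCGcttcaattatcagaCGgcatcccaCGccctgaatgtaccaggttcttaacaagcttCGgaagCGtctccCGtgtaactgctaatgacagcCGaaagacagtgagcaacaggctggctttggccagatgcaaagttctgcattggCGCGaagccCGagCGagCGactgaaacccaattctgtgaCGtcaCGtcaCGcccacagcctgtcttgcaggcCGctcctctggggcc
Ogdhl: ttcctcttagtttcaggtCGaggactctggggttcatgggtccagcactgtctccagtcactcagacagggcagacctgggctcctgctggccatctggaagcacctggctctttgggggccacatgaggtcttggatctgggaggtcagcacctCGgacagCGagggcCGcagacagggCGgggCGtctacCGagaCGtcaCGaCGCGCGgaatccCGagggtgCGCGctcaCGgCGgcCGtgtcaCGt
Cs: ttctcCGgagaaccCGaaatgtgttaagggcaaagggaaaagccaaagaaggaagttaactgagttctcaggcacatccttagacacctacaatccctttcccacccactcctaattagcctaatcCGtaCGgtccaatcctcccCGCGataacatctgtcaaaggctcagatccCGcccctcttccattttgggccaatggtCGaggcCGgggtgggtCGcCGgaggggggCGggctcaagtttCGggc

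The window of Ogdh held 18 CpG dinucleotides, that of Ogdhl 19 and that of Cs 13, against a median of 6 (quartiles 2 and 16) over 32851 promoters of the same length. Cs thus lay between the quartiles, and the windows of the other listed Ogdh starts held 9 to 35. RefSeq promoters were at hand for 8 of the 9 genes, all but Idh3a. Of 4 motifs searched on both strands, the core site of estrogen-related receptors (AAGGTCA) was in none of the 8 genes and in 4.08% of all promoters. The palindromic consensus of nuclear respiratory factor 1 was likewise in none of them, and in 3.74% of all promoters. The ETS site (CCGGAAG) was found for Idh3g alone and in 6.91% of all promoters. The cAMP response element (TGACGTCA), added after the sequences had been read, was present before Ogdh and Mdh2 and in 1.55% of all promoters. Such matches describe the letters of these windows.

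Levels are given as CPM (counts scaled to a common library size), normalised once over all 41 tissue samples. Total counts ran from 17572752 to 25680411 per mouse in inguinal WAT on HFD, from 8668279 to 11720458 on chow and from 8042591 to 10522554 in BAT. The adipocyte marker list (8 genes) summed to between 21316 and 39113 CPM in every mouse, and the brown adipocyte list (9 genes) to between 12208 and 22207 CPM in BAT against 21.2 to 66.0 CPM in inguinal WAT on HFD, as the tissue labels state. Lhx8 alone of the brown list went the other way, at 1.18 to 4.51 CPM in WT BAT and 5.75 to 12.4 CPM in WT inguinal WAT on HFD. Its medians in KI mice were 2.15 and 6.91 CPM. Skeletal muscle markers (14 genes) exceeded 1000 CPM in 8 libraries and reached 83773 CPM in KI mouse 4 on chow, where no other chow mouse passed 893 CPM. Results are therefore also given without these libraries where they change. Mfn2 itself was transcribed in every mouse, at 116 to 253 CPM in inguinal WAT and 347 to 568 CPM in BAT. It was not called between genotypes, with a log2 fold change of 0.34 ± 0.09 (SE, adjusted p = 0.0114) for inguinal WAT of HFD mice, 0.36 ± 0.12 (adjusted p = 0.0840) for chow mice and 0.29 ± 0.11 (adjusted p = 0.113) for BAT. Fewer cells of a type and less RNA per cell cannot be told apart in these whole-tissue samples.

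Of the 9 genes, 8 were well expressed everywhere and Ogdhl was rare everywhere. Per kilobase of gene model (RPKM), the mean levels in WT inguinal WAT on chow were led by Mdh2 (88.2 ± 12.9, SD, n = 7), followed by Idh3g (67.9 ± 12.8), Cs (65.3 ± 12.4), Idh3b (62.7 ± 9.60), Ogdh (52.2 ± 7.32), Idh3a (46.1 ± 8.87), Fh1 (33.2 ± 4.54) and Suclg1 (29.9 ± 4.17), with Ogdhl at 0.692 ± 0.709. Idh3g, Cs and Idh3b differed from their neighbours by less than an SD, as did Ogdh from Idh3a and Fh1 from Suclg1, whereas the steps from Mdh2 to Idh3g, from Idh3b to Ogdh and from Idh3a to Fh1 exceeded the SDs. In WT BAT, Idh3g led at 594 ± 108 RPKM (n = 6), Suclg1 stood at 440 ± 72.8, Fh1 was the lowest of the 8 at 256 ± 41.4, and Ogdhl stood at 0.0986 ± 0.0532. Lengths are those of the gene models, so these ratios between genes also depend on which exons each tissue uses. Transcripts of Ogdh and Ogdhl are 77.2% identical over 2701 aligned bases and share no stretch of 150 bases at 90% identity or more. Such stretches link Cs to 12 other genes (the longest of 174 bases) and Suclg1 to 180 (the longest of 197 bases), so a share of the reads of these 2 genes could have been lost or misplaced, and the other 7 genes have none. Idh3b shares 5 exon bases with Nop56 on the opposite strand.

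**Figure D1:**
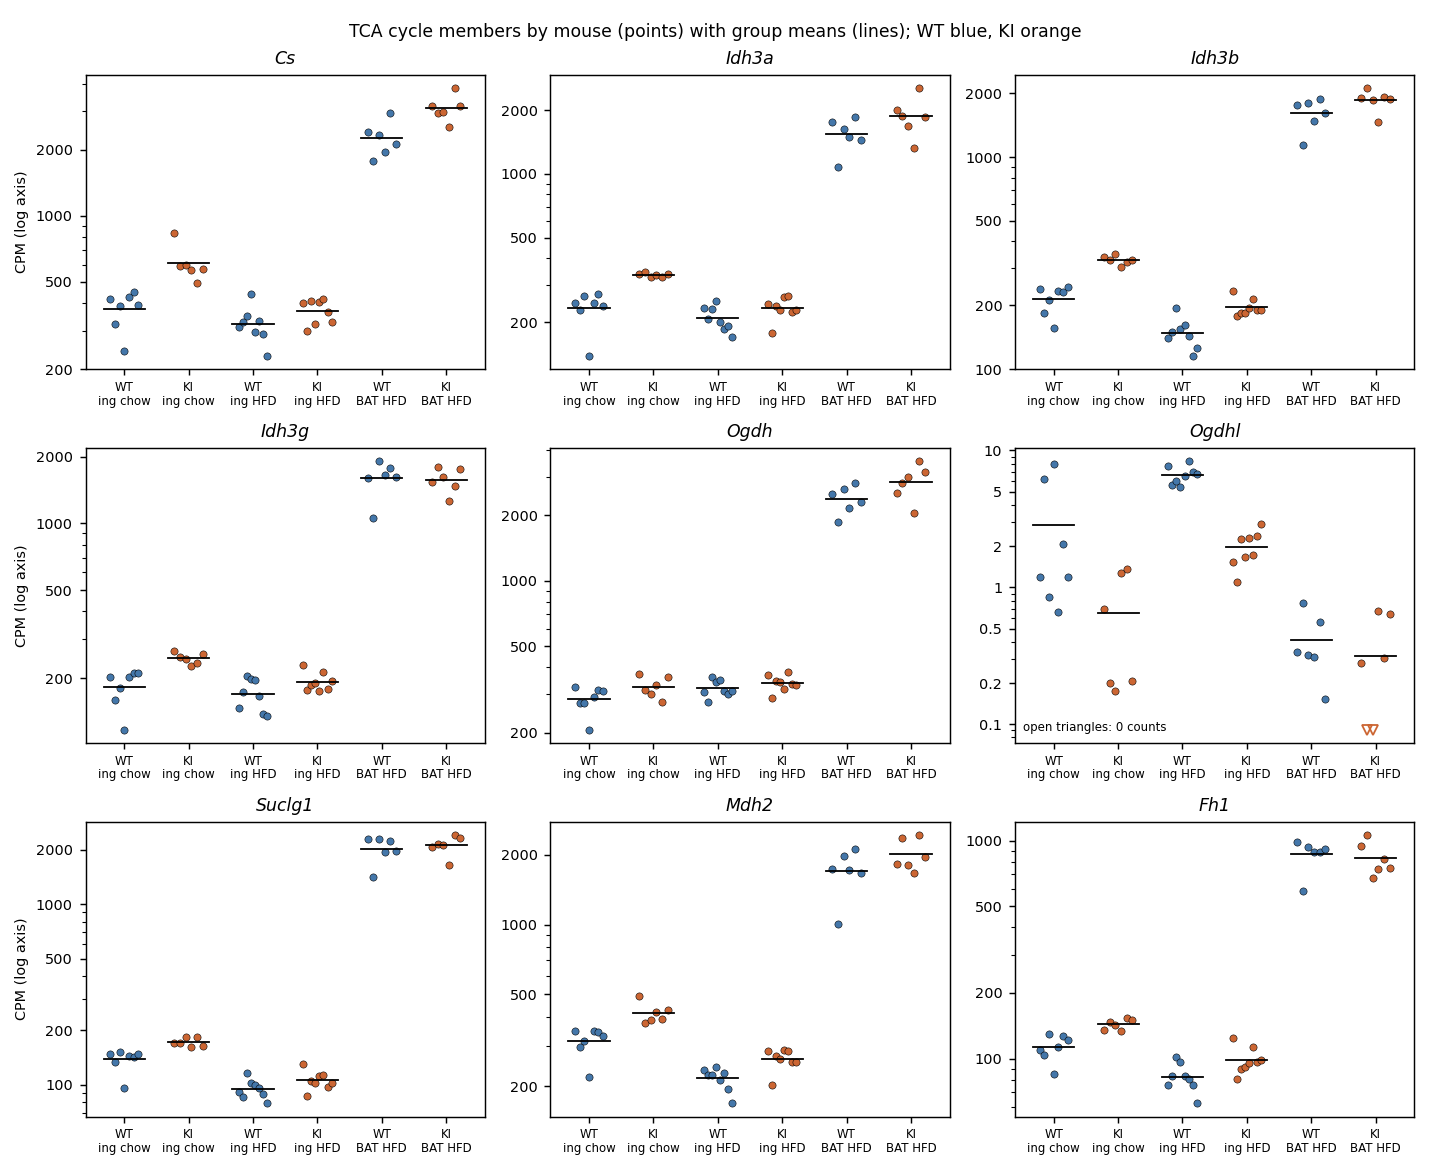
Level of each of the 9 genes in CPM (log axis) in every mouse, by genotype, tissue and diet. Points are mice and lines are group means. For 8 genes the BAT mice lie above all inguinal WAT mice, whereas for Ogdhl they lie at 0 to 0.772 CPM, below every inguinal HFD mouse.

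Citrate synthase (Cs, 10:128337734-128362479, plus strand) joins acetyl-CoA to oxaloacetate. In inguinal WAT on chow, Cs ran from 243 to 450 CPM in WT mice (median 393) and from 493 to 834 CPM in KI mice (median 583). The genotypes did not overlap, and KI mouse 1 stood apart at the top. The log2 fold change was 0.68 ± 0.15 with an adjusted p of 0.0106, just outside the threshold of 0.01. On HFD, Cs in inguinal WAT ran from 230 to 439 CPM (median 321) in WT and from 299 to 420 CPM (median 382) in KI mice, which overlapped widely (log2 fold change 0.20 ± 0.11, adjusted p = 0.225). In BAT the values were 1783 to 2950 CPM (median 2232) in WT and 2529 to 3820 CPM (median 3064) in KI mice, again overlapping, with a log2 fold change of 0.41 ± 0.14 and an adjusted p of 0.0759.

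The NAD-dependent isocitrate dehydrogenase is built from the catalytic subunit Idh3a (9:54586334-54604661) and the subunits Idh3b (2:130279309-130284547) and Idh3g (X:73778963-73786897). Idh3b rose in KI inguinal WAT on both diets. On HFD it ran from 115 to 194 CPM in WT mice (median 147) and from 179 to 233 CPM in KI mice (median 190). WT mouse 3, at 194 CPM, reached into the KI range, and the log2 fold change was 0.41 ± 0.09 (adjusted p = 0.00346). On chow it ran from 157 to 244 CPM in WT (median 232) and from 302 to 349 CPM in KI mice (median 326), with no overlap and a log2 fold change of 0.60 ± 0.10 (adjusted p = 0.00241). Idh3a on chow lay between 138 and 273 CPM in WT and between 324 and 343 CPM in KI mice, a narrow band over all 6 KI mice, with a log2 fold change of 0.51 ± 0.12 and an adjusted p of 0.0207. Idh3g on chow lay between 117 and 211 CPM in WT and between 226 and 266 CPM in KI mice (log2 fold change 0.42 ± 0.12, adjusted p = 0.0430). On HFD, Idh3a and Idh3g overlapped between genotypes, with log2 fold changes of 0.16 ± 0.09 and 0.19 ± 0.10. In BAT none of the 3 subunits passed the threshold, with log2 fold changes of 0.25 ± 0.15 for Idh3a, 0.17 ± 0.13 for Idh3b and -0.06 ± 0.14 for Idh3g. The call of Idh3b on HFD was lost without WT mouse 1 (adjusted p = 0.0106), without KI mouse 6 (0.0117) and without the 4 HFD libraries with muscle transcripts (0.0308), at log2 fold changes of 0.39, 0.38 and 0.41.

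Ogdh (11:6291633-6356642) encodes the E1 subunit of the 2-oxoglutarate dehydrogenase complex, which turns 2-oxoglutarate into succinyl-CoA. Of the 8 well-expressed genes it differed least between genotypes in inguinal WAT. It ran from 277 to 361 CPM in WT (median 311) and from 289 to 379 CPM in KI mice (median 339) on HFD, and from 206 to 326 CPM (median 291) and 276 to 371 CPM (median 323) on chow. The ranges overlapped on both diets. Its log2 fold changes were 0.09 ± 0.07 on HFD (adjusted p = 0.427) and 0.19 ± 0.11 on chow (adjusted p = 0.315). In BAT, WT mice had 1872 to 2818 CPM and KI mice 2041 to 3539 CPM (log2 fold change 0.22 ± 0.14, adjusted p = 0.358).

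Ogdhl (14:32322019-32348151) fell in KI inguinal WAT on HFD, the largest difference between genotypes among the 9 genes there. WT mice had 114 to 217 counts, or 5.41 to 8.31 CPM (median 6.61), and KI mice had 30 to 68 counts, or 1.10 to 2.92 CPM (median 1.99). Every KI mouse lay below every WT mouse. The log2 fold change was -1.74 ± 0.17, which is 3.34-fold lower (adjusted p = 7.75e-07), and leaving out any single mouse kept it between -1.84 and -1.65. Without the libraries with muscle transcripts it was -1.82. On chow the gene was rarer and more scattered. The WT mice had 13, 72, 11, 105, 7, 22 and 11 counts (mice 1 to 7) and the KI mice 7, 2, 2, 13, 17 and 2 counts (mice 1 to 6). WT mice 2 and 4, at 6.22 and 7.92 CPM, matched the WT level on HFD, whereas the other 5 WT mice lay between 0.660 and 2.07 CPM and overlapped with the KI range of 0.175 to 1.37 CPM. The log2 fold change was -2.13 ± 0.72 with an adjusted p of 0.0816. In 1 fit of all 6 groups, which shares its estimate of spread between tables, it was -2.12 with an adjusted p of 0.0038. In BAT Ogdhl was barely detected, with 1 to 7 counts per WT mouse and 0 to 6 per KI mouse (18 and 14 counts in all), and it did not pass the low-count filter of the edgeR fit between genotypes there.

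Macrophage markers (6 genes) were highest among the WT chow mice in the 2 mice with high Ogdhl, at 1066 CPM in mouse 2 and 1871 CPM in mouse 4, against 514 to 672 CPM in the other 5. On HFD each gene of this list had a lower median in KI than in WT mice. The sums on HFD ran from 581 to 950 CPM in WT (median 758) and from 407 to 1268 CPM in KI mice (median 568). KI mouse 5, with the highest of these sums, had 2.29 CPM of Ogdhl and stayed below every WT mouse. On chow, KI mouse 3 had the highest macrophage sum of the KI mice (928 CPM) and the lowest Ogdhl (2 counts, 0.175 CPM). WT chow mouse 4 also stood apart in epithelial markers (127 CPM, the other WT chow mice at most 2.73) and had the lowest adipocyte sum of the chow mice, 22242 CPM. It had 90.7 CPM of lymphocyte markers, but KI chow mice 1 and 3 had more, at 96.3 and 344 CPM. Fibroblast markers (6 genes) had lower medians in KI mice in all 3 tables, with 3447 and 2378 CPM in WT and KI inguinal WAT on HFD, 4134 and 2354 CPM on chow and 669 and 378 CPM in BAT, and overlapping ranges. None of the macrophage or fibroblast markers was at 0 throughout a group. The part of these cells in the level of Ogdhl was not tested.

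The ratio of Ogdhl to Ogdh within a mouse carries no scaling between libraries. As log2 of counts plus 0.5, it was -5.60 ± 0.27 (SD, n = 8) in WT and -7.46 ± 0.43 (n = 8) in KI inguinal WAT on HFD, without overlap. The difference of -1.86 had the smallest p that an exact two-sided permutation test over 12870 divisions of the mice can give, 0.000155, or 0.000466 after adjustment over the 3 ratio tests. On chow the ratio was -7.19 ± 1.53 (n = 7) in WT and -9.29 ± 1.29 (n = 6) in KI mice, a difference of -2.10 with overlap (exact permutation p = 0.0256, adjusted 0.0385). That p rose to 0.0556 without KI mouse 2, 3 or 6. In BAT the difference of -0.957 was within the spread (exact permutation p = 0.221). Ogdhl had at most 7 counts per BAT mouse, so this difference depends on the added 0.5 and was -0.735 with 1 added. It cannot decide whether the genotypes differ there. Per length, Ogdhl made up 2.68% ± 0.491 of both E1 transcripts in WT and 0.766% ± 0.232 in KI inguinal WAT on HFD (SD, n = 8), 1.46% ± 1.73 and 0.271% ± 0.247 on chow, and 0.0236% ± 0.0160 and 0.0160% ± 0.0167 in BAT. The WT mean on chow was raised by mouse 4, the highest of the group. The median of that group was 0.502%, and its mean without mouse 4 was 0.905% ± 0.99.

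**Figure D2:**
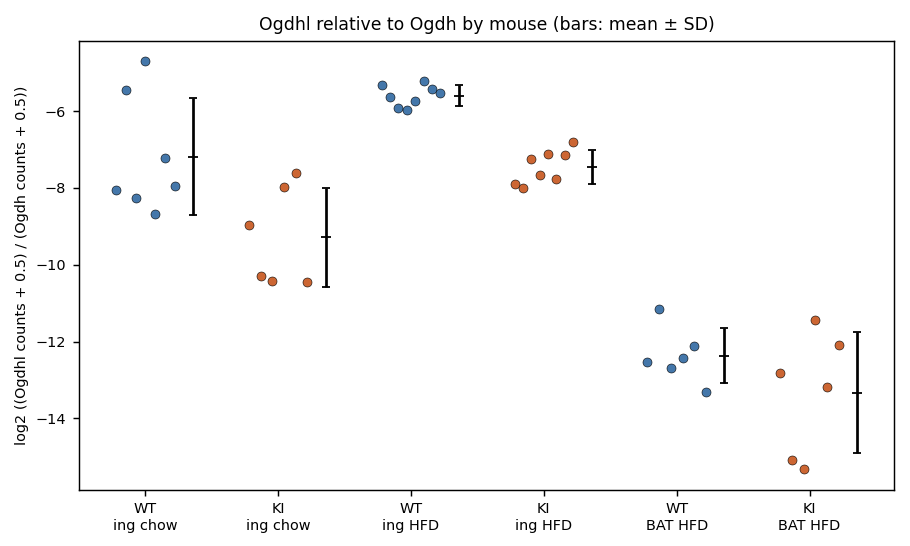
Log2 ratio of Ogdhl to Ogdh counts (0.5 added to each) in every mouse, with the mean and SD of each group beside the points. On HFD the KI mice lie between -8.01 and -6.81 and the WT mice between -5.98 and -5.22, and on chow WT mice 2 and 4 stand above the other WT mice.

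Suclg1 (6:73248382-73276911) encodes the alpha subunit that succinyl-CoA ligase shares between its ATP-forming and GTP-forming types. In inguinal WAT on chow it ran from 96.3 to 152 CPM in WT (median 144) and from 162 to 184 CPM in KI mice (median 170), with no overlap, a log2 fold change of 0.31 ± 0.10 and an adjusted p of 0.0578. On HFD it ran from 79.1 to 116 CPM in WT (median 93.5) and from 86.9 to 131 CPM in KI mice (median 104), with overlap (log2 fold change 0.17 ± 0.08, adjusted p = 0.165). In BAT it ran from 1422 to 2303 CPM in WT and from 1646 to 2416 CPM in KI mice, with a log2 fold change of 0.02 ± 0.13.

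Fumarase (Fh1, 1:175600374-175625635) hydrates fumarate, and the mitochondrial malate dehydrogenase (Mdh2, 5:135778480-135790398) closes the cycle. On chow, Fh1 ran from 84.7 to 129 CPM in WT and from 134 to 153 CPM in KI inguinal WAT, and Mdh2 from 220 to 349 CPM and from 377 to 491 CPM. Neither gene overlapped between genotypes, with log2 fold changes of 0.34 ± 0.09 (adjusted p = 0.0291) and 0.40 ± 0.11 (adjusted p = 0.0377). On HFD the ranges overlapped, with log2 fold changes of 0.26 ± 0.10 for Fh1 (adjusted p = 0.0600) and 0.29 ± 0.08 for Mdh2 (adjusted p = 0.0188). Mdh2 on HFD passed the threshold in DESeq2 (adjusted p = 0.00662) and without KI mouse 2 (0.00403). In BAT the log2 fold changes were -0.10 ± 0.14 and 0.20 ± 0.16.

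Counted over the 9 genes, KI inguinal WAT on HFD had 1 gene higher (Idh3b) and 1 lower (Ogdhl), against 6.21% higher and 5.24% lower (11.5% in all) over the 16471 genes tested. All 8 genes other than Ogdhl had a positive log2 fold change, with a median of 0.19 against 0.01 over all genes. Only Ogdhl was without overlap, as were 2.43% of all genes in that direction. On chow 1 gene was called higher (Idh3b) and none lower, against 1.96% higher and 1.27% lower (3.23% in all) over the 14629 genes tested. Of the 8 genes, 7 did not overlap between genotypes, all higher in KI mice, against 2.75% of all genes, and their median log2 fold change was 0.41 against -0.01 over all genes. DESeq2 called 5 of them higher (Cs, Idh3a, Idh3b, Mdh2 and Fh1) and the fit of all 6 groups 3 (Cs, Idh3a and Idh3b). Without WT mouse 4, the lowest of its group in all 8 genes, 3 were called (Cs, Idh3a and Idh3b), and without KI mouse 5 there were 2 (Cs and Idh3b). DESeq2 and the fit of all 6 groups also called more of all genes on chow than the edgeR fit per table. The counts from these other fits are therefore not read against the shares above. In BAT none of the 8 genes tested was called by edgeR, 1 had an unadjusted p below 0.05 (Cs) and DESeq2 called none either, where 1.83% of all 13267 genes were called. Their median log2 fold change in BAT was 0.18 against -0.01 over all genes.

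The result on chow did not rest on the KI mouse with muscle transcripts. Without KI mouse 4, Idh3b remained the gene called (log2 fold change 0.63, adjusted p = 0.00363), and the log2 fold changes of the others were 0.71 for Cs, 0.51 for Idh3a, 0.45 for Idh3g, 0.18 for Ogdh, 0.33 for Suclg1, 0.40 for Mdh2, 0.37 for Fh1 and -2.41 for Ogdhl. That mouse was the lowest of the 6 KI chow mice in 4 of the 8 genes and the highest in none. The summed level of the brown adipocyte markers also differed between the genotypes on chow. It ran from 38.8 to 123 CPM in WT and from 159 to 865 CPM in KI mice, with KI mouse 1, the mouse with the most Cs, at 865 CPM and KI mouse 5, the mouse with the least Cs among KI mice, at 159 CPM. Not all of the 8 genes followed this order. Among KI chow mice, mouse 1 was the highest in 4 of the 8 genes, and mouse 5 was the lowest in 2. Mouse 5 was the highest in 1, Fh1, at 153 CPM against 135 CPM in mouse 1. Ucp1, the thermogenic uncoupling protein, stayed at or below 0.895 CPM in every chow mouse, whereas Cidea, a lipid droplet protein of brown fat, ran from 5.58 to 46.7 CPM in WT and from 64.0 to 464 CPM in KI mice. Cox8b, a respiratory chain subunit of brown fat and muscle, ran from 18.9 to 60.3 CPM in WT and from 72.5 to 365 CPM in KI mice on chow, and Cidea and Cox8b together made up most of the sum. On chow, Ppara (0.679 to 2.49 CPM in WT and 2.65 to 4.90 CPM in KI mice) and Elovl3 (0 to 0.173 and 0.241 to 11.4 CPM) were also higher without overlap. From WT to KI, the median of Cox7a1 went from 6.99 to 13.8 CPM and that of Ucp1 from 0.188 to 0.330 CPM on chow. Other markers on the list did not follow them. The median of Dio2 went from 0.384 to 0.101 CPM and that of Lhx8 from 4.23 to 4.04 CPM on chow, and that of Zic1 was 0 in both genotypes. On HFD the medians of Cidea (6.69 and 17.7 CPM in WT and KI mice), Cox8b (6.60 and 13.6 CPM), Cox7a1 (4.14 and 5.72 CPM) and Ppara (1.17 and 2.17 CPM) were higher in KI mice. Those of Dio2 (0.308 and 0.0188 CPM), Elovl3 (0.796 and 0.145 CPM), Ucp1 (0.428 and 0.329 CPM) and Lhx8 (8.58 and 6.91 CPM) were lower in KI mice on HFD, and that of Zic1 was 0 and 0.0188 CPM. The sum on HFD ran from 21.2 to 44.3 CPM in WT and from 31.9 to 66.0 CPM in KI mice. The part of such cells in the levels of the 8 genes was not tested.

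**Figure D3:**
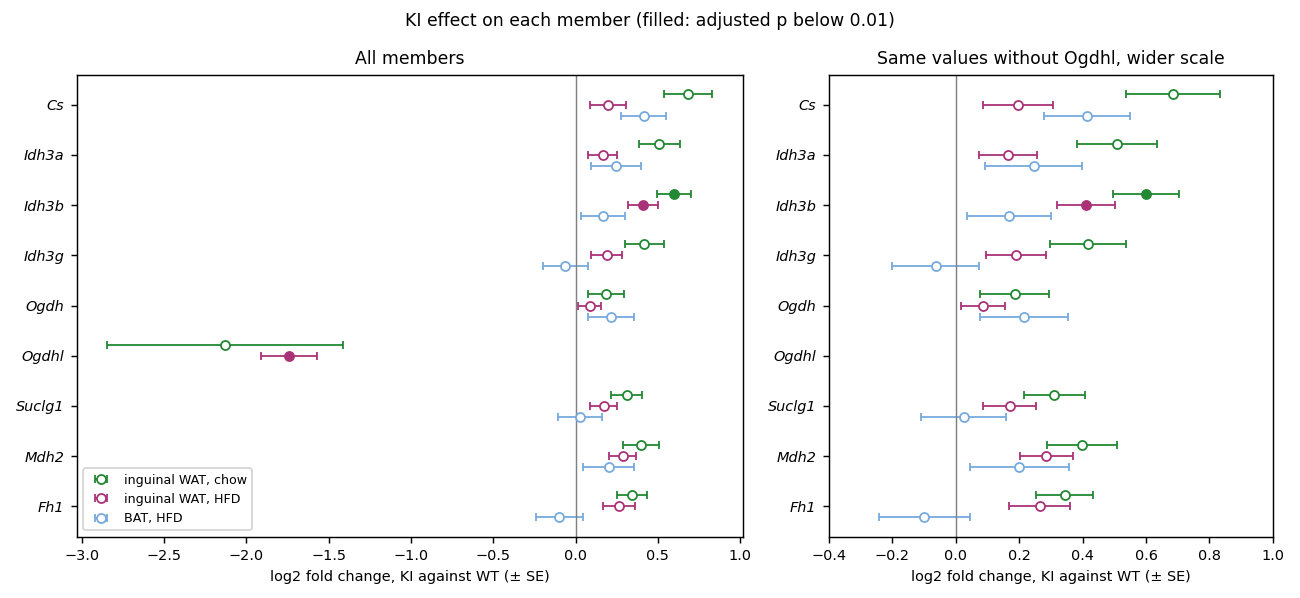
Log2 fold change between KI and WT mice (± SE) for each gene in the 3 comparisons, with filled points for an adjusted p below 0.01. The right panel repeats the values without Ogdhl on a wider scale, where the 8 genes run from 0.19 to 0.68 on chow, from 0.09 to 0.41 in inguinal WAT on HFD and from -0.10 to 0.41 in BAT.

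Whether the KI effect differed between diets was tested as an interaction in 1 fit of all 6 groups. None of the 9 genes was called by edgeR or DESeq2, where 0.889% of all 16201 genes were called by edgeR, and 2 had an unadjusted p below 0.05. These were Cs and Idh3a, whose KI effects on HFD were lower than on chow by log2 values of 0.50 ± 0.18 (adjusted p = 0.144) and 0.36 ± 0.18 (adjusted p = 0.320). For Ogdhl the difference between diets was 0.37 ± 0.63. The difference of the KI effect between BAT and inguinal WAT on HFD was called for none of the 8 genes other than Ogdhl by either tool. It had an unadjusted p below 0.05 for none of them, where 2.46% of all genes were called by edgeR. For Ogdhl this difference was 1.38 ± 0.85 and not called, but 18 WT and 14 KI counts in all in BAT are too few to decide it.

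The tissue difference was far larger. On HFD, 8 genes rose in BAT against inguinal WAT and Ogdhl fell, in WT and in KI mice alike, where 57.8% (WT) and 60.9% (KI) of all genes were called, with 28.1% and 29.9% of all genes higher and 29.7% and 30.9% lower. For all 9 genes every BAT mouse lay beyond every inguinal mouse of its genotype, against 41.0% and 42.2% of all genes in either direction. Suclg1 had the largest difference, from a median of 93.5 CPM in inguinal WAT to 2114 CPM in BAT in WT mice, a log2 fold change of 4.42 ± 0.12 (adjusted p = 3.76e-29), and 4.32 ± 0.12 in KI mice. In WT mice Idh3b followed, with 3.44 ± 0.11 in WT and 3.24 ± 0.11 in KI mice, and then came Fh1 with 3.40 ± 0.12 and 3.07 ± 0.12 and Idh3g with 3.24 ± 0.13 and 3.03 ± 0.12. Mdh2, Ogdh, Idh3a and Cs lay between 2.81 and 2.98 in WT mice. In KI mice they lay between 2.94 and 3.08, with Ogdh level with Fh1, and Ogdh and Cs above Idh3g. The median of the 8 genes was 3.11 in WT and 3.07 in KI mice, against -0.07 and -0.09 over all genes. Ogdhl went the other way, with log2 fold changes of -3.94 ± 0.57 in WT (adjusted p = 9.85e-08) and -2.57 ± 0.58 in KI mice (adjusted p = 0.000179). From pooled counts, its level was 15.4-fold higher in inguinal WAT than in BAT in WT mice (1285 against 18 counts) and 5.91-fold higher in KI mice (407 against 14 counts). BAT and inguinal WAT came in separate tables of different depth, and the sources used here do not tie their mouse numbers together, so tissue and table cannot be told apart. The shares of counts from mitochondrially encoded genes were 14.6% to 18.4% in WT and 10.6% to 12.8% in KI BAT, and 5.40% to 14.8% in WT and 2.15% to 3.68% in KI inguinal WAT on HFD. Leaving these genes out of the scaling changed no call of the 9 genes in either genotype.

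The partners of Suclg1 differed in how far they followed it into BAT. These were singled out after their values had been seen. Sucla2, the beta subunit of the ATP-forming type, rose by a log2 fold change of 4.08 ± 0.12 in WT and 4.51 ± 0.12 in KI mice, whereas Suclg2, the beta subunit of the GTP-forming type, rose by 1.91 ± 0.12 and 1.66 ± 0.11. Per length, the ratio of Suclg1 to Suclg2 transcripts was 13.5 ± 2.42 in WT BAT (SD, n = 6) and 2.33 ± 0.119 in WT inguinal WAT on HFD (n = 8), and the ratio of Suclg1 to Sucla2 was 0.845 ± 0.0976 and 0.671 ± 0.0375. In KI mice the first ratio was 14.0 ± 1.56 and 2.17 ± 0.201, whereas the second went the other way between the tissues, at 0.794 ± 0.0737 in BAT and 0.908 ± 0.0998 in inguinal WAT.

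**Figure D4:**
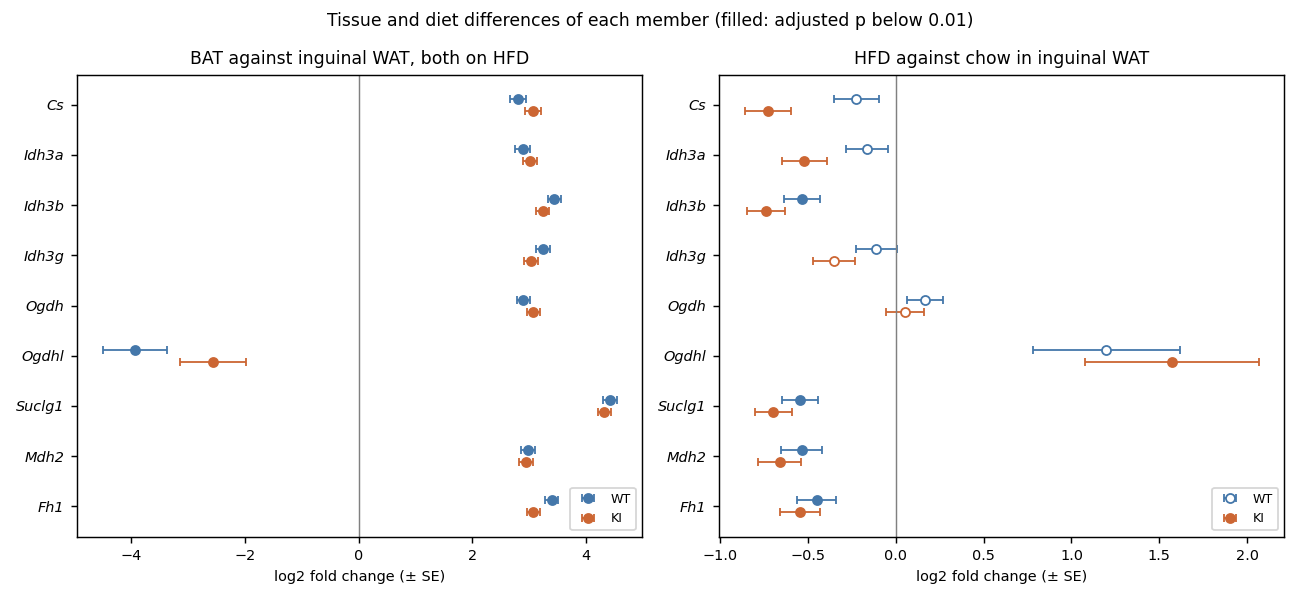
Log2 fold change (± SE) of each gene in BAT against inguinal WAT on HFD (left) and in inguinal WAT on HFD against chow (right), in WT and KI mice, with filled points for an adjusted p below 0.01. On the left 8 genes lie between 2.81 and 4.42 and Ogdhl at -3.94 and -2.57, and on the right 7 genes lie below 0 in both genotypes.

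On HFD the levels in inguinal WAT were lower than on chow for most of the 9 genes. In WT mice 4 genes fell and none rose, against 15.6% lower and 12.7% higher (28.2% in all) over all genes. The 4 were Suclg1 (-0.54 ± 0.10, adjusted p = 4.17e-05), Mdh2 (-0.54 ± 0.12), Idh3b (-0.53 ± 0.10) and Fh1 (-0.45 ± 0.11) on the log2 scale. In KI mice 6 fell and 1 rose, where 17.3% of all genes were called lower and 13.7% higher (31.0% in all). The 6 were Idh3b (-0.74 ± 0.11), Cs (-0.73 ± 0.13), Suclg1 (-0.70 ± 0.11), Mdh2 (-0.66 ± 0.12), Fh1 (-0.54 ± 0.11) and Idh3a (-0.52 ± 0.13), and none of them overlapped between the diets in KI mice, against 10.7% of all genes in that direction. Cs in WT mice changed by -0.23 ± 0.13 (adjusted p = 0.158) and Idh3a by -0.16 ± 0.12 (adjusted p = 0.291). Ogdh stood at 0.17 ± 0.10 in WT and 0.05 ± 0.11 in KI mice and was called in neither. Ogdhl rose in KI mice by 1.57 ± 0.49 (adjusted p = 0.00937), a call that was lost in 10 of 14 fits without 1 mouse, without the libraries with muscle transcripts (adjusted p = 0.0187) and in a fit of the inguinal groups alone (0.0118). In WT mice Ogdhl differed by 1.20 ± 0.42 (adjusted p = 0.0202), and passed the threshold without WT chow mouse 2 (adjusted p = 0.00578) or 4 (0.000967). The tables of the 2 diets also differed in depth, and each HFD mouse has 2 libraries where each chow mouse has 1, so diet and table cannot be told apart.

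By group means, the order of the 6 groups was the same for Cs, Idh3a, Idh3b, Suclg1 and Mdh2, with KI BAT highest, then WT BAT, KI chow, WT chow, KI HFD and WT HFD inguinal WAT. In these 5 genes the step from BAT to KI chow and that from KI to WT chow had no overlap, and the other 3 neighbouring pairs did overlap. Fh1 had the same order with WT BAT above KI BAT. Idh3g also had WT BAT on top, and only its step from BAT to KI chow was free of overlap. For Ogdh only the step from BAT to inguinal WAT was free of overlap. Ogdhl ran from WT HFD at the top over WT chow, KI HFD, KI chow and WT BAT to KI BAT, and every neighbouring pair overlapped. By medians, KI HFD (1.99 CPM) lay above WT chow (1.19 CPM). By the mean absolute difference of the 6 centred log2 group means, the genes nearest to Ogdh among 16192 were Kctd1 (0.123), Acadl (0.123), the long-chain acyl-CoA dehydrogenase, and Dlst (0.128), the E2 subunit of the same complex. Those nearest to Ogdhl were Gm12963 (0.182), Ina (0.195), a neuronal intermediate filament gene, and Tlr8 (0.208), an endosomal receptor of innate immune cells.

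The other genes of the pathway were taken as 37 genes in 4 lists. Of the 10 remaining subunits of cycle enzymes, 6 rose and none fell in KI inguinal WAT on HFD. The largest rises were those of Sdhb (0.70 ± 0.07, adjusted p = 9.16e-07), the iron-sulphur subunit of succinate dehydrogenase, and Idh2 (0.67 ± 0.08, adjusted p = 7.03e-06), the NADP-dependent mitochondrial isocitrate dehydrogenase, both without overlap. Of 11 genes of pyruvate dehydrogenase and its regulators 3 rose, and of 4 succinate dehydrogenase assembly genes none was called. Among 12 cytosolic and side-branch enzymes, Me3, a mitochondrial malic enzyme, rose by 1.45 ± 0.19, and the cytosolic malic enzyme Me1 (-0.55 ± 0.14) and the cytosolic Idh1 (-0.37 ± 0.09) fell. The calls of Me1 and Idh1 held in 3 and 5 of 16 fits without 1 mouse and were both lost with no filter on low counts, and that of Me1 was lost with a replicate block (adjusted p = 0.0196) and, narrowly, without mitochondrially encoded genes. In all 11 of the 37 genes rose and 2 fell, against 6.21% higher and 5.24% lower over all genes tested, with a median log2 fold change of 0.07 over the 37 against 0.01 over all genes. In the fit of all 6 groups 5 rose and none fell, Me1 and Idh1 lying at adjusted p-values of 0.311 and 0.0158, and without the libraries with muscle transcripts 7 rose and none fell.

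On chow 6 of the 37 genes rose and none fell, against 1.96% higher and 1.27% lower over all genes tested. The 3 largest rises were those of Acly (2.51 ± 0.40, adjusted p = 0.002), ATP citrate lyase, which makes cytosolic acetyl-CoA from exported citrate, Me3 (1.69 ± 0.33, adjusted p = 0.00629) and Pdhb (1.53 ± 0.23, adjusted p = 0.001), the E1 beta subunit of pyruvate dehydrogenase. The pyruvate dehydrogenase list held 3 of the 6 and the other cycle subunits 1. The median over the 37 was 0.33 against -0.01 over all genes. DESeq2 called 14 of the 37 higher and 1 lower, and it also called more of all genes on chow than the edgeR fit per table. The calls of Acly and Pdhb held in all 13 fits without 1 mouse. That of Me3 held in 3 and that of Sdhb in 2 of the 13, so neither loss was tied to a single mouse. Without KI mouse 4, the mouse with muscle transcripts, 4 of the 37 were called. In BAT, Got1, the cytosolic aspartate aminotransferase of the malate-aspartate shuttle, rose by 1.10 ± 0.18 (adjusted p = 0.00223) and no other of the 37 genes was called, a call that was lost without the 3 BAT libraries with muscle transcripts (1.04, adjusted p = 0.0173).

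**Figure D5:**
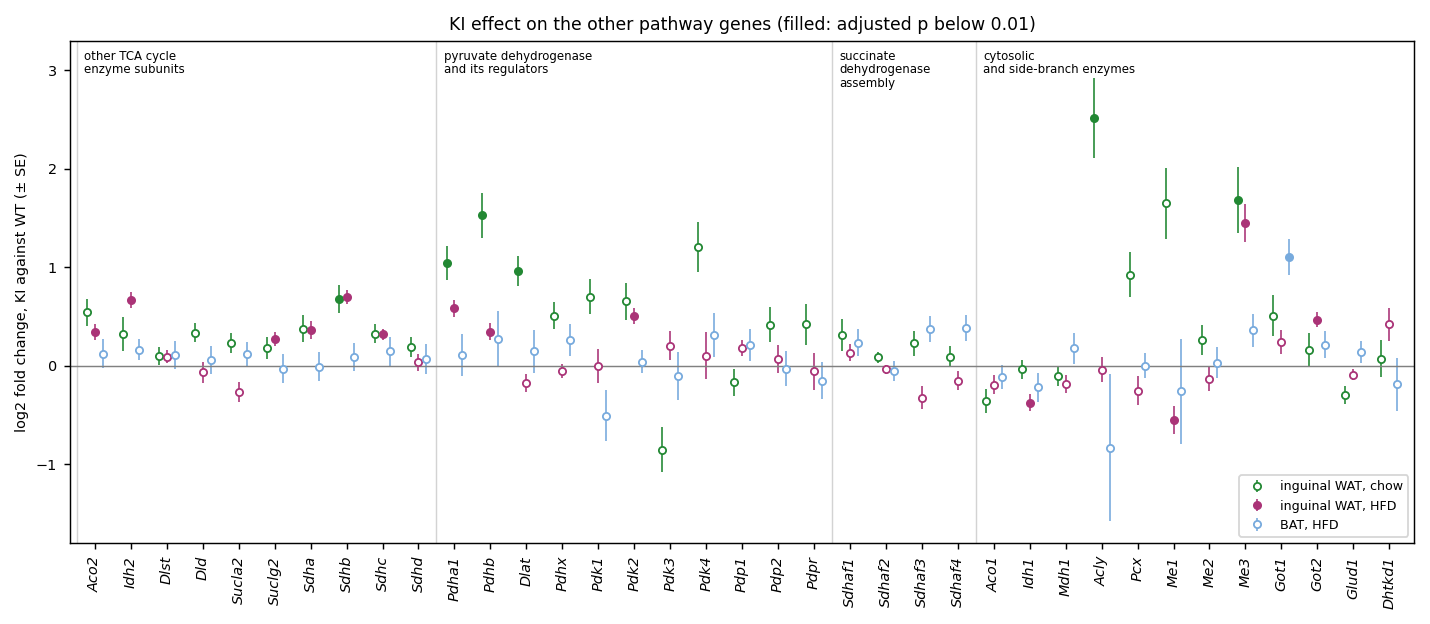
Log2 fold change between KI and WT mice (± SE) for the 37 other pathway genes in inguinal WAT on chow, inguinal WAT on HFD and BAT, grouped by list, with filled points for an adjusted p below 0.01. Acly and Me3 have the largest called rises on chow, at 2.51 and 1.69, and in BAT Got1 alone is called, at 1.10.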

How the data were processed

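RNA from 41 tissue samples (57 sequencing samples, since each mouse in inguinal WAT on HFD had 2 libraries and 1 column) was sequenced. The submitters' processing notes name cutadapt, STAR, SAMtools, featureCounts and the GRCm38 build, and the authors deposited raw counts per gene. Versions are not given in the sources used here. Here, edgeR 4.0.16 (TMM scaling, filterByExpr, robust quasi-likelihood test) was fitted per table for KI against WT, and once over all 6 groups for tissue, diet and interactions. P-values were Benjamini-Hochberg adjusted over all genes and called below 0.01. They measure the spread between mice. Errors of log2 fold changes are SE. CPM was scaled over all 41 samples, and RPKM divides it by the length in the deposited tables. Ratios used exact permutation tests with scipy 1.17.1. DESeq2 1.42.0, other scalings, filters and thresholds, a replicate block and leaving out mice were alternatives, and leaving out the libraries with muscle transcripts was added after seeing the data. The fits were tested on simulated data. The genes, lists and naming rule (per comparison, the 3 largest called rises and falls among the other pathway genes) were chosen with earlier results of these data known. Promoters came from RefSeq (GRCm38.p6), and transcripts were compared with blastn 2.17.0. Mice sharing a number were not treated as pairs, and BAT and inguinal WAT were taken as independent.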

Additional observations from a re-analysis of the deposited data

Results flagged for a closer look

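In 8 of 54 groups (9 genes in 6 groups each), 1 mouse lay far from the others of its group relative to the group's range. The 9 genes were measured in the same mice, and some mice were flagged for more than 1 gene. The 54 groups are therefore not independent, and the number of flags is not read against chance. Of the 8 flags, 3 were WT mouse 4 on chow, the mouse with the highest macrophage sum of its group, with 138 CPM of Idh3a (the others 227 to 273), 96.3 CPM of Suclg1 (134 to 152) and 220 CPM of Mdh2 (295 to 349). In WT BAT, mouse 2 had 1058 CPM of Idh3g (the others 1603 to 1902) and 590 CPM of Fh1 (888 to 984), and it was among the BAT libraries with muscle transcripts. In KI inguinal WAT on HFD, mouse 2 had 177 CPM of Idh3a (the others 223 to 264) and 203 CPM of Mdh2 (254 to 288). This mouse also had 542 CPM of lymphocyte markers, against 6.41 to 12.4 CPM in the other KI mice on HFD. WT mice 2 and 6 on HFD likewise had 379 and 200 CPM of these markers, against 8.79 to 15.3 CPM in the other WT mice on HFD. Mdh2 was called on HFD without KI mouse 2 (edgeR adjusted p = 0.00403). KI mouse 1 on chow had 834 CPM of Cs (the others 493 to 596).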

How the results depend on the processing

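Leaving out the libraries with muscle transcripts, chosen after seeing the data, left 1 of the 9 genes called on HFD (Ogdhl), 7 other pathway genes on HFD and 0 in BAT. In 1 fit of all 6 groups, 5 other pathway genes were called on HFD and 13 on chow, and 4 of the 9 genes on chow (3 higher, 1 lower). On chow DESeq2 called 5 of the 9 genes and 15 other pathway genes, and a minimum of 10 counts in every mouse gave 2 of the 9. At an adjusted p below 0.05, 6 of the 9 and 15 others were called on chow. At 0.001 there were 0 and 0 on chow, 1 and 7 on HFD and 0 others in BAT. No share of all genes is given for these thresholds, for the minimum of 10 counts or without the muscle libraries. Those counts are therefore not read against all genes. Over all genes on chow, 472 were called, against 1107 by DESeq2 and 1088 in the fit of all 6 groups. Leaving out single mice gave 1 to 3 of the 9 genes on HFD and 1 to 3 on chow, 7 to 12 and 4 to 7 other pathway genes, and ratio differences on chow of -2.43 to -1.68. With mouse number as a replicate block, 0 of the 9 genes and 0 others were called on chow (127 genes in all), Idh3b lying at an adjusted p of 0.0173. Whether the numbers pair the mice is not known. Deviations of same-numbered WT and KI mice correlated at -0.255 to 0.687 on HFD, -0.218 to 0.188 on chow and -0.146 to 0.311 in BAT. Such correlations cannot exclude a shared litter or cage, and the paper reports that littermates of both genotypes were housed together. Small effects that were not called changed sign. The KI effect in BAT of Suclg1 was -0.044 without the muscle libraries and -0.052 to 0.082 without single mice, and that of Idh3g was -0.15 to 0.0035. The diet difference of Ogdhl was -0.13 to 0.75 (negative without WT chow mouse 4), and the tissue difference of Mdh2 was -0.16 to 0.023 (positive at 0.0050 and 0.0030 without KI BAT mouse 4 or WT HFD mouse 8). The causes were not tested. Low counts limit Ogdhl on chow and in BAT.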

Other observations

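The balance of succinyl-CoA ligase subunits also differed between genotypes on HFD, a pattern singled out after the values had been seen and given as a description with no test. Per length, the ratio of Suclg1 to Sucla2 transcripts lay between 0.623 and 0.728 for WT mice and between 0.789 and 1.12 for KI mice in inguinal WAT on HFD, without overlap, and between 0.611 and 0.955 and between 0.703 and 0.852 on chow, where the KI range lay inside the WT range. Neither Suclg1 nor Sucla2 was itself called on HFD, with log2 fold changes of 0.17 and -0.27 (edgeR adjusted p = 0.165 and 0.0684). The ratio of Idh3a to Idh3b per length was 0.962 ± 0.134 in WT and 0.804 ± 0.0822 in KI inguinal WAT on HFD (SD, n = 8 each), with overlap.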
